A study of Homo sapiens with 12 samples.

Results

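The lysosomal genes described here are 37 genes for enzymes and membrane proteins of the lysosome. They are a fixed list of gene symbols, chosen with earlier results of these data known. Every probe of those genes was taken from the array's probe-to-gene table. That table named 61 probes for 36 of the 37 genes, and 55 probes of 35 genes were bright enough to be tested, out of 18127 tested probes of 48803 on the array. Lysosomes are acidic compartments that break down macromolecules delivered by endocytosis and autophagy. Their hydrolases are made in the endoplasmic reticulum, receive a mannose 6-phosphate tag in the Golgi and are carried to the lysosome by receptors that bind the tag. Proteins of the lysosomal membrane shield the cytosol, pump protons and export the products of digestion, and the transcription factor TFEB is known to raise many of these genes together. In tumour cells lysosomal cathepsins and sialidase are studied for their part in invasion, cell-surface glycans and matrix turnover.

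RNA was measured on Illumina bead arrays in SKOV3ip, an ovarian cancer cell line derived from SKOV3, the name that the source labels use. The 3 groups of 4 arrays were cells transfected with an siRNA against EZH2 (EZH2siRNA), cells transfected with a scrambled siRNA (CTLsiRNA) and cells given no siRNA (SKOV3ip). EZH2 is the histone H3 lysine methyltransferase of Polycomb repressive complex 2, and the study concerned its part in angiogenesis. All groups are the same cell line, and the siRNA sequences, doses and times are not known from the labels. Nothing in the labels says that a group's arrays came from separate cultures, so each p-value covers the spread among these arrays and no more, and that spread could be technical. A group's level is the log2 of the background-corrected and quantile-normalised intensity, given as mean ± SD over 4 arrays, and a gene was called when its p from the linear model, adjusted over all tested probes, was under 0.05. Where a gene had several tested probes, the brightest one stands for it.

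EZH2 itself fell by 0.88 on the log2 scale in EZH2siRNA cells relative to CTLsiRNA cells (SE 0.14, adjusted p = 0.00144), and its difference between CTLsiRNA and SKOV3ip cells was -0.43 (adjusted p = 0.0895). Mean raw signal per array lay between 186 and 284 in EZH2siRNA, between 291 and 386 in CTLsiRNA and between 157 and 410 in SKOV3ip, and 3 arrays (EZH2siRNA arrays 1 and 4 and SKOV3ip array 4) lay under 250. All 12 tested interferon-response genes rose in CTLsiRNA cells relative to SKOV3ip cells, with a median log2 fold change of 2.42, and their mean log2 level lay between 10.07 and 10.19 in EZH2siRNA, between 9.65 and 9.78 in CTLsiRNA and between 7.20 and 7.26 in SKOV3ip. Markers of other cell types were few: 1 of 8 fibroblast, 2 of 9 leukocyte and macrophage and 2 of 6 endothelial marker genes passed the background filter, against 10 of 11 epithelial and SKOV3 markers. Their part in the results below was not tested. Measurements on bulk RNA cannot tell less RNA per cell from fewer cells that make it.

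A short palindrome was common in the promoters of the lysosomal genes. CACGTG is the core of the E-box, TCACGTGA extends it, and the element named CLEAR, which TFEB binds, extends it further by 1 base on each side to 10 bases. Each shorter motif lies within the longer ones, and all 3 read the same on both strands. Promoter windows of 300 bases, from 250 before to 50 after the transcription start, were found for 29 of the 37 genes in RefSeq (GRCh38.p14). CACGTG lay in at least 1 window of 12 of these 29 genes (41.4%), against 8.77% of all 27305 genes with a window. Per window the shares were 27.3% of 44 windows of lysosomal genes and 7.26% of all 35116 windows. TCACGTGA was found in 7 lysosomal genes (24.1%), against 1.18% of all genes, and the CLEAR element in 4 (GAA, GALNS, GNPTG and MCOLN1, 13.8%), against 0.421%. TFEB is already known to raise many genes of this kind, so the shares are a description and not an independent test. These matches describe the letters of the windows only. The 4 windows below are shown because they belong to the 2 genes called lower in EZH2siRNA against CTLsiRNA, NEU1 (chr6:31862772-31863071, minus strand) and NPC1 (chr18:23586457-23586756, minus strand), and to 2 genes with the full element, GAA (chr17:80101331-80101630, plus strand) and MCOLN1 (chr19:7522374-7522673, plus strand). Capitals mark CACGTG.
NEU1: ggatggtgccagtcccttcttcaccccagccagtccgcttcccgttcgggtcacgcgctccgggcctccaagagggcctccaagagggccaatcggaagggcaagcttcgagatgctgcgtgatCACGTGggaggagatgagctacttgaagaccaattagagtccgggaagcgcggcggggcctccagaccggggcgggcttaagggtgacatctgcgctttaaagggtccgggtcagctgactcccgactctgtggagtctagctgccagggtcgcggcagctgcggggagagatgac
NPC1: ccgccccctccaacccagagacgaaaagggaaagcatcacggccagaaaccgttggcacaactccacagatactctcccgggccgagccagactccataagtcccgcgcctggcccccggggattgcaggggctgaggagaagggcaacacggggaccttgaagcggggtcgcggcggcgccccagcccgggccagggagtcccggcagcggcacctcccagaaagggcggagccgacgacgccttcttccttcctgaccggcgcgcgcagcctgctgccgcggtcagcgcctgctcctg
GAA: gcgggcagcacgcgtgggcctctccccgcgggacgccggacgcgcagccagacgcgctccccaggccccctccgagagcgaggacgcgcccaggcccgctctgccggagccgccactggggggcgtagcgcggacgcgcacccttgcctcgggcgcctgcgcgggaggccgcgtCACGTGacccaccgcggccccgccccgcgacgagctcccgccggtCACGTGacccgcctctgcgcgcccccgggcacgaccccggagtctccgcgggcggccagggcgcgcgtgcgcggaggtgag
MCOLN1: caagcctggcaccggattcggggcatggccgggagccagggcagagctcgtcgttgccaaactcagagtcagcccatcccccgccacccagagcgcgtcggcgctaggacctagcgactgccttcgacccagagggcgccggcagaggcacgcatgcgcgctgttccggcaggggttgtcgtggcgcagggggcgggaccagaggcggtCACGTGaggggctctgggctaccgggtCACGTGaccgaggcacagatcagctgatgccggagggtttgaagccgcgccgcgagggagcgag
The NEU1 window held 1 CACGTG, whose first base lay at position -126 when the transcription start is counted as 0, and the extended forms were not in it. The NPC1 window held 0. In the GAA window the 2 copies began at -76 and -31, and in the MCOLN1 window at -41 and -14. GAA and MCOLN1, described with their groups below, were not called in any of the 3 comparisons.

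Relative to CTLsiRNA cells, EZH2siRNA cells had lower RNA of NEU1, the lysosomal sialidase that removes terminal sialic acids from glycoproteins and glycolipids, and of NPC1, the membrane transporter that carries cholesterol out of the lysosome. CTSZ, a cathepsin with carboxypeptidase activity, was higher. NEU1 stood at 6.72 ± 0.17 in EZH2siRNA and 8.15 ± 0.09 in CTLsiRNA cells (SD, n = 4 each), a 2.69-fold difference, whereas the other 2 calls were of about 1.5-fold. These calls rest on limma's fit over all 12 arrays. Of 35 tested lysosomal genes, 3 were called (8.57%), 1 higher and 2 lower, against 4.75% of all 11274 tested genes, of which 2.02% were higher and 2.73% lower. The median log2 fold change of the lysosomal genes was -0.06, against -0.02 over all tested genes. At an unadjusted p under 0.05, 2 lysosomal genes were higher (5.71%, against 9.19% of all tested genes) and 6 lower (17.1%, against 10.9%).

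The same CTLsiRNA arrays were then set against untransfected SKOV3ip cells, which shows how cells given a scrambled siRNA differed from cells given none. In CTLsiRNA cells 7 lysosomal genes rose and 0 fell: NEU1 and NPC1, the proteases CTSB, CTSL and TPP1, the sphingolipid activator precursor PSAP, and IDS, which removes sulfate from heparan and dermatan sulfate. These 7 are 20% of 35, against 7.62% of all tested genes called, 4.75% higher and 2.86% lower. At an unadjusted p under 0.05, 13 were higher (37.1%, against 12.3% of all tested genes) and 2 lower (5.71%, against 9.27%). The median log2 fold change was 0.19 over the lysosomal genes and 0.02 over all tested genes. The rises lay between 0.40 for IDS and 0.92 for NEU1.

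Between EZH2siRNA and SKOV3ip cells 8 lysosomal genes were called. NAGLU, PSAP, CTSB, CTSL and CTSZ were higher, and NEU1, CTSC and LAMP2 were lower. The 5 higher genes are 14.3% of the 35, against 9.93% of all tested genes, and the 3 lower genes are 8.57%, against 8.29%; in either direction the shares were 22.9% and 18.2%. At an unadjusted p under 0.05, 9 were higher (25.7%, against 17.1% of all tested genes) and 4 lower (11.4%, against 15.7%). The median log2 fold change was 0.08, against -0.00 over all tested genes. Separation of the 2 groups, with no overlap of their arrays, was seen for 5 lysosomal genes in EZH2siRNA against CTLsiRNA (14.3%, with 11.4% of all tested genes), for 9 in CTLsiRNA against SKOV3ip (25.7%, with 15.5%) and for 8 in EZH2siRNA against SKOV3ip (22.9%, with 17.7%). Each comparison shares 4 arrays with each of the others, so the 3 sets of calls are not independent.

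**Figure D1:**
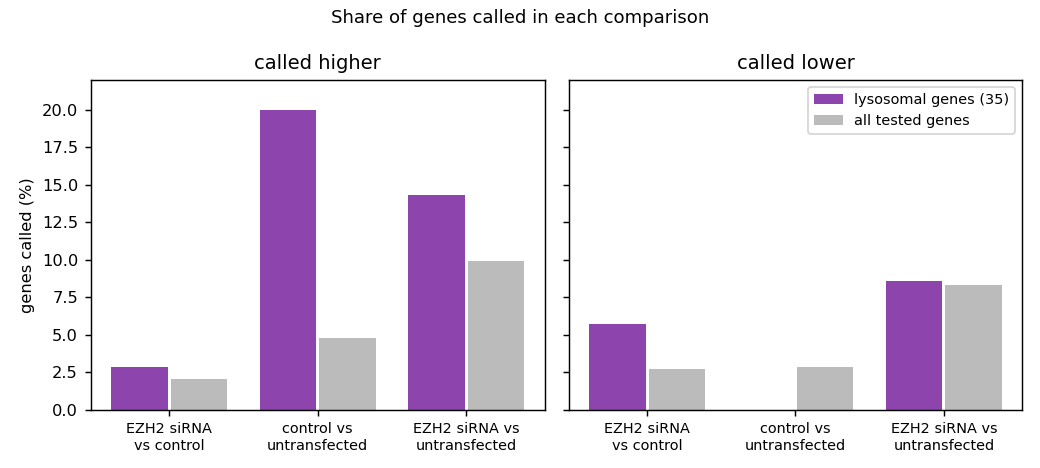
Share of genes called higher (left panel) and lower (right panel) in each comparison, in percent of genes tested. Purple bars are the 35 tested lysosomal genes, chosen with earlier results of these data known, and grey bars all 11274 tested genes. The widest gap is in control siRNA against untransfected cells, with 20% of the lysosomal genes and 4.75% of all genes called higher.

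NEU1 works in a complex with 2 other proteins of the list, CTSA (protective protein, or cathepsin A), which stabilises the sialidase, and GLB1 (lysosomal beta-galactosidase). Its single probe read 6.84, 6.50, 6.68 and 6.85 on the EZH2siRNA arrays, 8.19, 8.02, 8.20 and 8.18 on the CTLsiRNA arrays and 7.25, 7.04, 7.43 and 7.21 on the SKOV3ip arrays. No 2 groups overlapped: all EZH2siRNA arrays lay lowest, the CTLsiRNA arrays highest and the SKOV3ip arrays between them. NEU1 fell by 1.43 in EZH2siRNA against CTLsiRNA (SE 0.12, 95% confidence interval -1.67 to -1.18, adjusted p = 1.5e-06). It rose by 0.92 in CTLsiRNA against SKOV3ip (interval 0.67 to 1.16, adjusted p = 3.93e-05) and fell by 0.51 in EZH2siRNA against SKOV3ip (interval -0.76 to -0.27, adjusted p = 0.0056). The exact two-sided permutation test gave p = 0.0286 for each pair of groups, the smallest value that 4 arrays against 4 allow. Before any correction the probe read between 73.8 and 87.9 intensity units in EZH2siRNA, between 279.9 and 443 in CTLsiRNA and between 83.9 and 221 in SKOV3ip, and it lay above its array's background on all 12 arrays. The EZH2siRNA readings were close to the level of 62.0 to 66.0 units above which a probe of those arrays counted as present, and the offset of the background correction shrinks fold changes there. Across 26 other ways of processing the same arrays, NEU1 stayed called in EZH2siRNA against CTLsiRNA, with log2 fold changes between -2.06 and -1.25 and adjusted p between 6.39e-07 and 0.0119.

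Neither partner of the sialidase was called in any comparison. CTSA read 9.47, 8.97, 8.98 and 9.85 in EZH2siRNA, 9.31, 9.29, 9.36 and 9.19 in CTLsiRNA and 9.03, 8.96, 9.43 and 9.58 in SKOV3ip. Its groups overlapped throughout, and EZH2siRNA differed from CTLsiRNA by 0.03 (interval -0.33 to 0.40, adjusted p = 0.95). GLB1 read 9.80, 9.58, 9.94 and 9.72 in EZH2siRNA, 9.99, 9.997, 9.86 and 10.19 in CTLsiRNA and 9.64, 9.41, 9.91 and 9.42 in SKOV3ip. GLB1 differed by -0.25 in EZH2siRNA against CTLsiRNA (adjusted p = 0.315) and by 0.41 in CTLsiRNA against SKOV3ip (adjusted p = 0.0623), neither called. A second GLB1 probe differed by -0.05 and by 0.37 (adjusted p = 0.892 and 0.108) in these comparisons. It was not called either, though CTLsiRNA and SKOV3ip did not overlap on it.

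**Figure D2:**
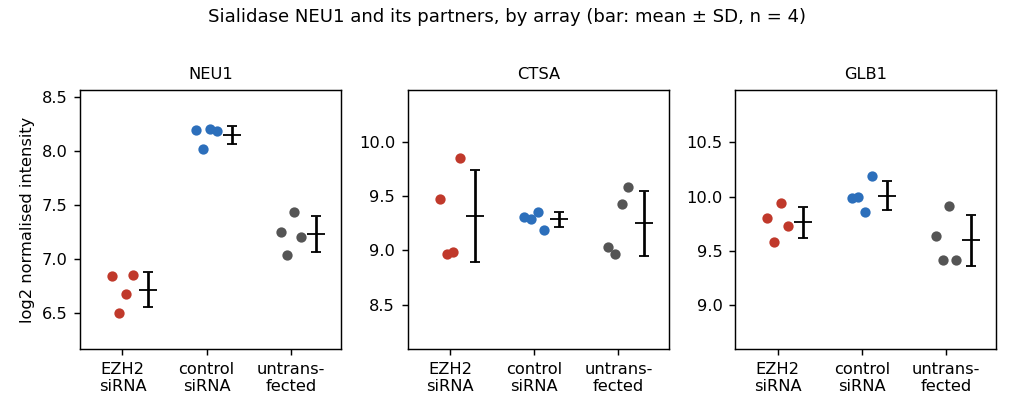
Log2 normalised intensity of NEU1, CTSA and GLB1 on every array of EZH2 siRNA, control siRNA and untransfected cells; points are arrays and bars the mean ± SD of 4. The 3 groups separate for NEU1, with means of 6.72, 8.15 and 7.23, and overlap for CTSA and GLB1.

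Cholesterol that lipoproteins bring into the lysosome is released by LIPA, taken up by the soluble protein NPC2 and passed to NPC1 in the membrane. NPC1 read 9.57, 9.47, 9.92 and 9.75 in EZH2siRNA, 10.19, 10.25, 10.18 and 10.25 in CTLsiRNA and 9.51, 9.23, 9.86 and 9.78 in SKOV3ip. The 4 CTLsiRNA arrays lay close together and above every other array, and the EZH2siRNA and SKOV3ip arrays overlapped. NPC1 fell by 0.54 in EZH2siRNA against CTLsiRNA (SE 0.14, adjusted p = 0.0306, 1.45-fold) and rose by 0.62 in CTLsiRNA against SKOV3ip (adjusted p = 0.00772), and EZH2siRNA and SKOV3ip differed by 0.08 (interval -0.20 to 0.37, adjusted p = 0.742). The call against CTLsiRNA was close to the threshold. It was lost on leaving out any 1 of 7 arrays, EZH2siRNA arrays 1, 2 and 4 and CTLsiRNA arrays 1 to 4, where the fall was between 0.47 and 0.56 and the adjusted p between 0.0505 and 0.113. NPC2 was higher in CTLsiRNA than in SKOV3ip cells on every array, with log2 levels of 12.28 to 12.53 against 12.04 to 12.17, but its difference of 0.34 missed the threshold (adjusted p = 0.107). LIPA, the acid lipase, differed by -0.26 in EZH2siRNA against CTLsiRNA (adjusted p = 0.397).

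Apart from CTSA, described with the sialidase and called in 0 comparisons, the list held 6 proteases, which made up 3 of the 7 calls in CTLsiRNA against SKOV3ip and 4 of the 8 in EZH2siRNA against SKOV3ip. Cathepsins B and L (CTSB, CTSL) are cysteine proteases that digest proteins within the lysosome, TPP1 removes tripeptides from the amino end of peptides, CTSC is a dipeptidyl peptidase that activates the serine proteases of immune cells, and CTSD is the main aspartic protease. In CTLsiRNA against SKOV3ip 3 of 6 rose and 0 fell, in EZH2siRNA against SKOV3ip 3 rose and 1 fell, and in EZH2siRNA against CTLsiRNA 1 rose and 0 fell. Over all tested genes 4.75% were called higher in CTLsiRNA against SKOV3ip, 9.93% higher and 8.29% lower in EZH2siRNA against SKOV3ip, and 2.02% higher in EZH2siRNA against CTLsiRNA. CTSD was not called in any comparison, with log2 fold changes between -0.22 and 0.07.

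CTSB read 10.39, 10.38, 10.65 and 10.22 in EZH2siRNA, 10.53, 10.62, 10.58 and 10.57 in CTLsiRNA and 9.54, 9.81, 9.90 and 9.93 in SKOV3ip. On this brightest probe every transfected array lay above every untransfected one, and the 2 transfected groups overlapped. CTSB rose by 0.78 in CTLsiRNA (SE 0.12, adjusted p = 0.000275, 1.72-fold) and by 0.61 in EZH2siRNA (adjusted p = 0.00148), each against SKOV3ip. The first of these 2 calls held in all 26 alternatives. A second CTSB probe stood at 10.21, 10.43 and 9.94 in EZH2siRNA, CTLsiRNA and SKOV3ip, close to the brightest probe's 10.41, 10.58 and 9.80. It differed by 0.48 in CTLsiRNA (adjusted p = 0.0739) and by 0.27 in EZH2siRNA (adjusted p = 0.265) against SKOV3ip. Neither difference was called, and on this probe SKOV3ip overlapped both transfected groups.

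CTSL read 11.35, 11.67, 11.55 and 11.53 in EZH2siRNA, 11.49, 11.28, 11.33 and 11.56 in CTLsiRNA and 10.89, 10.90, 10.90 and 10.77 in SKOV3ip. The transfected arrays again lay above all untransfected arrays. It rose by 0.55 in CTLsiRNA (SE 0.11, adjusted p = 0.00364) and by 0.66 in EZH2siRNA (adjusted p = 0.000392) against SKOV3ip. A second probe rose by 0.49 and 0.72 in these comparisons (adjusted p = 0.0239 and 0.000748), of which the first was lost without CTLsiRNA array 1, 3 or 4 or SKOV3ip array 4 (adjusted p 0.0615 to 0.0826). The dimmest probe differed by 0.11 and 0.41 and was not called. TPP1 read 9.11, 8.75, 9.38 and 9.41 in EZH2siRNA, 9.18, 9.20, 9.30 and 9.33 in CTLsiRNA and 8.79, 8.71, 8.92 and 8.66 in SKOV3ip. It rose by 0.48 in CTLsiRNA against SKOV3ip (adjusted p = 0.0359), where the groups did not overlap, and differed by 0.39 in EZH2siRNA against SKOV3ip (adjusted p = 0.0501). The TPP1 call was lost on leaving out any of CTLsiRNA arrays 1 to 4 or SKOV3ip arrays 1, 2 and 4, with a difference of 0.45 to 0.51 and an adjusted p of 0.0625 to 0.112.

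CTSZ was the one lysosomal gene called higher in EZH2siRNA than in CTLsiRNA cells. It read 9.63, 9.22, 8.79 and 9.09 in EZH2siRNA, 8.74, 8.73, 8.35 and 8.60 in CTLsiRNA and 8.58, 8.53, 8.38 and 8.05 in SKOV3ip. The EZH2siRNA arrays lay above all others, the lowest of them by a small margin, and CTLsiRNA and SKOV3ip overlapped. CTSZ rose by 0.58 against CTLsiRNA (SE 0.16, interval 0.25 to 0.92, adjusted p = 0.0455) and by 0.80 against SKOV3ip (adjusted p = 0.00201). The first call was lost on leaving out any 1 of 8 arrays, EZH2siRNA arrays 1, 2 and 4, CTLsiRNA arrays 1 to 4 and SKOV3ip array 3, with a rise of 0.43 to 0.63 and an adjusted p of 0.053 to 0.185.

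CTSC was the one protease that was lower. It read 9.08, 8.92, 9.19 and 9.23 in EZH2siRNA, 9.44, 9.54, 9.42 and 9.22 in CTLsiRNA and 9.71, 9.31, 9.87 and 10.03 in SKOV3ip, and EZH2siRNA and SKOV3ip did not overlap. Its brightest probe fell by 0.62 in EZH2siRNA against SKOV3ip (SE 0.14, adjusted p = 0.0047), and the other 2 tested probes differed by -0.48 (adjusted p = 0.0616) and -0.19 (adjusted p = 0.427). The differences of -0.30 in EZH2siRNA against CTLsiRNA and -0.32 in CTLsiRNA against SKOV3ip were not called.

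**Figure D3:**
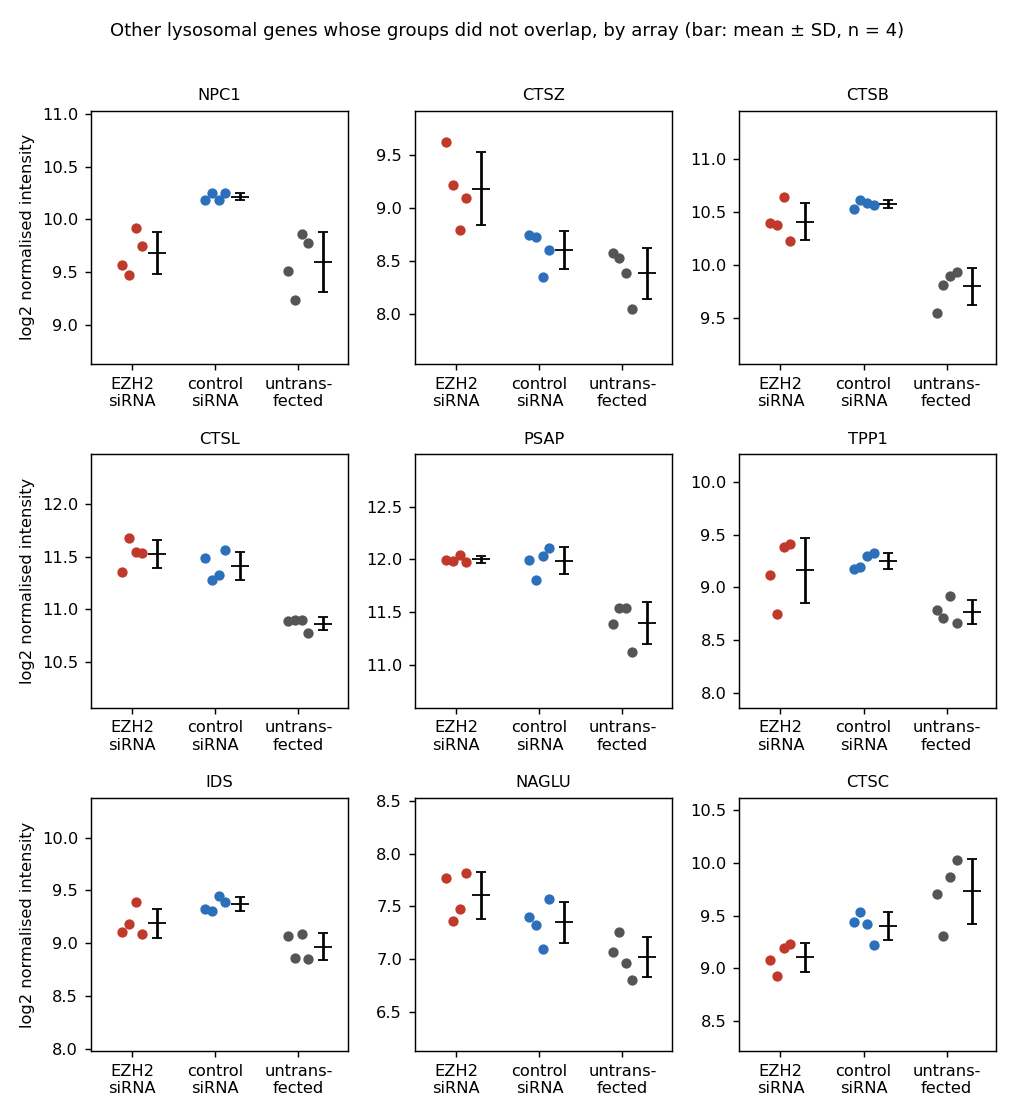
Log2 normalised intensity on every array for 9 other lysosomal genes called in at least 1 comparison whose 2 groups did not overlap; points are arrays and bars the mean ± SD of 4, with EZH2 siRNA, control siRNA and untransfected cells from left to right. CTSB, CTSL and PSAP sit higher in both transfected groups, CTSZ highest in EZH2 siRNA and NPC1 highest in control siRNA.

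Among the 4 lipid-degrading genes, PSAP, the precursor of the saposins that present sphingolipids to their hydrolases, was among the brightest genes of the list. It read 11.995, 11.98, 12.04 and 11.97 in EZH2siRNA, 11.997, 11.81, 12.03 and 12.11 in CTLsiRNA and 11.39, 11.54, 11.54 and 11.12 in SKOV3ip. Both transfected groups lay above all untransfected arrays. PSAP rose by 0.59 in CTLsiRNA (SE 0.12, adjusted p = 0.00322) and by 0.60 in EZH2siRNA (adjusted p = 0.00146) against SKOV3ip, and a second probe rose by 0.56 and 0.68 (adjusted p = 0.00939 and 0.00106). EZH2siRNA and CTLsiRNA differed by 0.01 (interval -0.23 to 0.25).

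SMPD1 and ASAH1, given here after their values were seen, separated EZH2siRNA from CTLsiRNA without passing the threshold. SMPD1, the acid sphingomyelinase that releases ceramide, read 6.31, 6.29, 6.30 and 6.23 in EZH2siRNA and 6.82, 6.52, 6.49 and 6.98 in CTLsiRNA, a difference of -0.42 (adjusted p = 0.0756). It was dim, above background on 2 of 4 EZH2siRNA arrays. A second, dimmer SMPD1 probe lay above background on 0 of 4 EZH2siRNA, 4 of 4 CTLsiRNA and 2 of 4 SKOV3ip arrays, and was not called. It read 6.21 ± 0.08 in EZH2siRNA and 6.38 ± 0.10 in CTLsiRNA (SD, n = 4 each). That probe passed the background filter through the CTLsiRNA arrays, where it is high, so these levels are given as a description only. ASAH1, the acid ceramidase that cleaves ceramide, read 7.22, 7.01, 7.03 and 7.17 in EZH2siRNA and 6.89, 6.88, 6.88 and 6.77 in CTLsiRNA, a difference of 0.26 (adjusted p = 0.242). Neither pair of groups overlapped, as was so for 11.4% of all tested genes, and neither gene was called in any comparison.

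Apart from NEU1 and GLB1, described with the sialidase complex, the list held 12 enzymes that degrade glycans. Of these, 0 were called in EZH2siRNA against CTLsiRNA, where 1 had an unadjusted p under 0.05 in limma and the log2 fold changes ran from -0.41 for FUCA1, the alpha-fucosidase, to 0.35 for ARSA, the arylsulfatase of sulfatide. IDS rose in CTLsiRNA against SKOV3ip and NAGLU in EZH2siRNA against SKOV3ip. IDS read 9.10, 9.18, 9.39 and 9.09 in EZH2siRNA, 9.32, 9.31, 9.45 and 9.39 in CTLsiRNA and 9.07, 8.85, 9.08 and 8.85 in SKOV3ip. Its brightest probe rose by 0.40 in CTLsiRNA against SKOV3ip (adjusted p = 0.0329), but its other 2 tested probes differed by 0.13 and 0.01 and were not called. The IDS call was lost without any of CTLsiRNA arrays 1 to 4 or SKOV3ip arrays 2 and 4 (difference 0.37 to 0.42, adjusted p 0.056 to 0.11). NAGLU, which cleaves N-acetylglucosamine from heparan sulfate, read 7.77, 7.36, 7.47 and 7.82 in EZH2siRNA, 7.40, 7.33, 7.10 and 7.57 in CTLsiRNA and 7.07, 7.26, 6.97 and 6.80 in SKOV3ip. EZH2siRNA lay above SKOV3ip on every array, by 0.58 on average (SE 0.14, adjusted p = 0.00661), with the CTLsiRNA arrays between them and overlapping both. FUCA1 was higher in CTLsiRNA than in SKOV3ip on all arrays, at 8.71 ± 0.11 against 8.25 ± 0.17 (SD, n = 4 each), with a difference of 0.46 that was not called (adjusted p = 0.131). The other 9 enzymes were called in 0 comparisons. They were HEXA (beta-hexosaminidase alpha chain), GAA (glycogen-cleaving alpha-glucosidase), GLA (alpha-galactosidase), IDUA (alpha-iduronidase), and MANBA and MAN2B1 (beta- and alpha-mannosidase). With them stood ARSA, and GALNS and ARSB (sulfatases of glycosaminoglycans). HEXA and IDUA were dim, above background on 2 of 4 EZH2siRNA arrays, and GALNS on 3 of 4, which limits what their probes could show.

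The lysosomal membrane is covered by the glycoproteins LAMP1 and LAMP2, with SCARB2, the receptor that carries glucocerebrosidase to the lysosome, and MCOLN1, a calcium and iron channel. LAMP1, SCARB2 and MCOLN1 were called in 0 comparisons. LAMP1 stood at 11.69 ± 0.26 in EZH2siRNA, 11.87 ± 0.17 in CTLsiRNA and 11.68 ± 0.11 in SKOV3ip (SD, n = 4 each). MCOLN1 differed by 0.41 in EZH2siRNA against SKOV3ip (adjusted p = 0.0721). CD63, a tetraspanin of the lysosome, has no probe named in the table used here.

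LAMP2 had 6 tested probes, which gave different answers. LAMP2 RNA is spliced into isoforms with different last exons, among them LAMP2A, the receptor of chaperone-mediated autophagy, and LAMP2B. The platform annotation assigns 3 probes to the LAMP2B transcript, 2 to LAMP2A and 1 to a cDNA. The brightest probe, a LAMP2B one, read 9.14, 9.66, 9.30 and 9.19 in EZH2siRNA, 9.44, 9.73, 9.93 and 9.92 in CTLsiRNA and 9.98, 10.17, 9.52 and 9.69 in SKOV3ip. It fell by 0.52 in EZH2siRNA against SKOV3ip (SE 0.15, adjusted p = 0.0272) although the groups overlapped on 1 array of each. A second LAMP2B probe read 8.35, 8.76, 8.59 and 8.31 in EZH2siRNA, 8.57, 9.26, 9.10 and 9.23 in CTLsiRNA and 9.46, 9.34, 8.86 and 9.10 in SKOV3ip, and fell by 0.69 (adjusted p = 0.00656) with no overlap. The third LAMP2B probe differed by -0.16, the 2 LAMP2A probes by -0.05 and -0.09 and the cDNA probe by -0.03, and none of these was called. No test compared the probes with each other, and probe sequences were not used here. The call of the brightest LAMP2 probe was lost on leaving out EZH2siRNA array 1 or 4 or SKOV3ip array 1 or 2 (fall of 0.41 to 0.47, adjusted p 0.0731 to 0.0913).

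**Figure D4:**
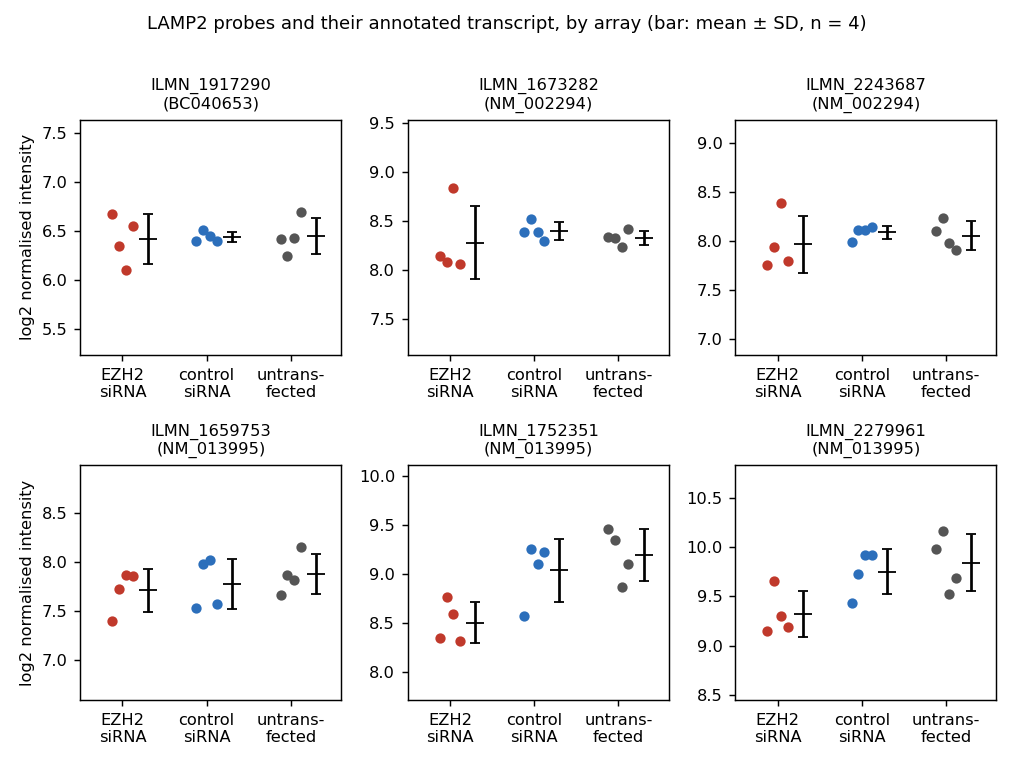
Log2 normalised intensity of the LAMP2 probes on every array, by the transcript that the platform annotation gives each probe; points are arrays and bars the mean ± SD of 4. Levels can be compared between groups within a panel, not between probes. The 2 LAMP2B probes that fell in EZH2 siRNA against untransfected cells are the brightest and the one with a log2 fold change of -0.69.

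GNPTAB and GNPTG encode the phosphotransferase that starts the mannose 6-phosphate tag, NAGPA uncovers the tag, and M6PR is the cation-dependent receptor that binds it. By their brightest probes 0 of these 4 genes were called in any comparison, and in EZH2siRNA against CTLsiRNA 0 had an unadjusted p under 0.05. GNPTAB read 7.67, 7.53, 7.24 and 7.49 in EZH2siRNA, 7.35, 7.42, 7.09 and 6.94 in CTLsiRNA and 6.99, 7.49, 7.54 and 7.59 in SKOV3ip, with a difference of 0.28 in EZH2siRNA against CTLsiRNA (interval -0.02 to 0.59, adjusted p = 0.314). A second, dimmer GNPTAB probe was above background on 4 of 4 EZH2siRNA arrays, 0 of 4 CTLsiRNA arrays and 1 of 4 SKOV3ip arrays. It read 6.50 ± 0.25 in EZH2siRNA and 6.06 ± 0.12 in CTLsiRNA (SD, n = 4 each). It passed the background filter through the EZH2siRNA arrays, where it is high, so these levels are given as a description only. M6PR stood at 8.64 ± 0.20 in EZH2siRNA, 8.66 ± 0.22 in CTLsiRNA and 8.98 ± 0.28 in SKOV3ip.

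TFEB, the transcription factor that binds the CLEAR element, was too dim to test. Its probe read 6.14, 5.87, 6.35 and 6.09 in EZH2siRNA, 6.03, 6.09, 6.12 and 6.20 in CTLsiRNA and 6.22, 6.18, 5.91 and 6.04 in SKOV3ip. It lay above background on 1, 0 and 1 of 4 arrays in this order, so no difference in TFEB RNA was detectable at this signal.

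**Figure D5:**
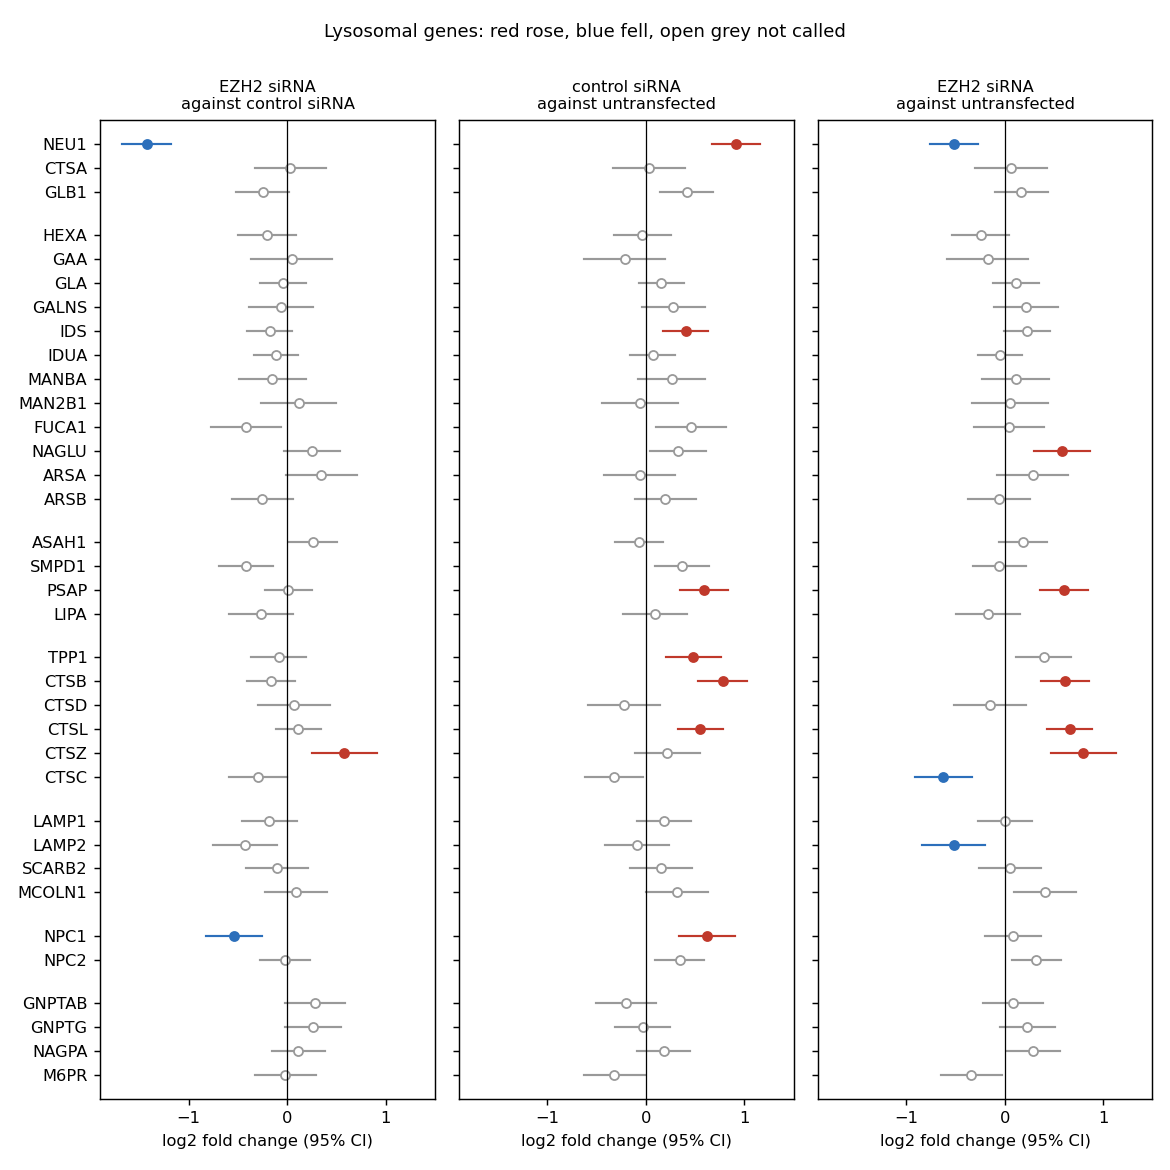
Log2 fold change with its 95% confidence interval for the 35 tested lysosomal genes, one panel for each comparison and one line for each gene, ordered by role. Filled red points rose, filled blue points fell and open grey points were not called; NEU1 is the farthest from 0 in EZH2 siRNA against control siRNA, at -1.43.

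By pattern over the 3 comparisons, 24 of the 35 tested lysosomal genes were called in none of them. PSAP, CTSB and CTSL were called higher in both transfected groups against SKOV3ip. IDS and TPP1 were called only in CTLsiRNA against SKOV3ip, and NAGLU, CTSC and LAMP2 only in EZH2siRNA against SKOV3ip, without a test of whether the comparisons differ. NEU1 was the one gene called in all 3.

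Other genes of the lysosome and of the pathways that control it were read from lists chosen with earlier results of these data known. Beside the list counts here and below stand the shares of all tested genes. In EZH2siRNA against CTLsiRNA 2.02% were called higher and 2.73% lower, and in CTLsiRNA against SKOV3ip 4.75% and 2.86%. In EZH2siRNA against SKOV3ip they were 9.93% and 8.29%. At an unadjusted p under 0.05 in limma they were 9.19% and 10.9%, 12.3% and 9.27%, and 17.1% and 15.7%, in the same order. The V-ATPase is the proton pump that acidifies the lysosome, and of its 16 tested subunit genes 0 were called in EZH2siRNA against CTLsiRNA, where limma gave 3 higher and 3 lower at an unadjusted p under 0.05. In CTLsiRNA against SKOV3ip 2 subunit genes rose, ATP6V0A1 by 0.54 and ATP6V1B2 by 0.48. In EZH2siRNA against SKOV3ip 4 rose, led by ATP6V0B with 0.74 (adjusted p = 0.00288), ATP6V0A1 with 0.56 and ATP6V0D1 with 0.56. Of 21 other hydrolases and activators, HYAL2, a hyaluronidase, rose by 0.74 in EZH2siRNA against CTLsiRNA (adjusted p = 0.0192), and 0 fell. CPVL, a carboxypeptidase, fell by 0.58 in CTLsiRNA and by 0.61 in EZH2siRNA, each against SKOV3ip. In EZH2siRNA against SKOV3ip 2 of the 21 rose, CTSH among them by 0.50, and 4 fell, among them GGH by 0.63, PPT1 by 0.56 and CPVL. Leaving out 1 array ended several of these calls: HYAL2 without EZH2siRNA array 1 or 4 or CTLsiRNA array 2 or 3 (adjusted p 0.0685 to 0.0806), and PPT1 without EZH2siRNA array 1 (0.0532). GGH was lost without EZH2siRNA array 1 or 4 or SKOV3ip array 1 (0.0545 to 0.0585). In CTLsiRNA against SKOV3ip, ATP6V0A1 was lost without CTLsiRNA array 1, 3 or 4 or SKOV3ip array 1, 2 or 3 (0.0541 to 0.119), and ATP6V1B2 without CTLsiRNA array 2, 3 or 4 or SKOV3ip array 1 or 4 (0.053 to 0.091).

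Of 16 other membrane proteins and transporters, SLC36A1, a proton-coupled amino acid transporter, fell by 0.64 in EZH2siRNA against CTLsiRNA (adjusted p = 0.0146). ABCB9, a peptide transporter, rose by 0.56 in CTLsiRNA and CLCN7, the chloride-proton exchanger, by 0.59 in EZH2siRNA, each against SKOV3ip. Of 5 sorting receptors and adaptors 0 were called in any comparison, with 0 at an unadjusted p under 0.05 in EZH2siRNA against CTLsiRNA and, in limma, 3 and 2 higher against SKOV3ip in CTLsiRNA and EZH2siRNA. Of 19 genes of mTORC1 and MiT/TFE control, LAMTOR4 and LAMTOR2, subunits of the Ragulator complex that anchors mTORC1 to the lysosome, rose in EZH2siRNA against CTLsiRNA by 0.77 and 0.64 (adjusted p = 0.0193 and 0.043). Of the 19 genes 0 were called lower there. LAMTOR5 and LAMTOR3, of the same complex, did not rise. LAMTOR5 stood lower, at 11.71 ± 0.23 in EZH2siRNA and 12.12 ± 0.10 in CTLsiRNA (SD, n = 4 each). LAMTOR3 stood at 8.24 ± 0.30 and 8.31 ± 0.19. FLCN, the folliculin that acts on the Rag GTPases, rose by 0.58 and TSC1 by 0.49 in CTLsiRNA against SKOV3ip. LAMTOR5 fell by 0.42 in EZH2siRNA against SKOV3ip. The SLC36A1 call was lost without EZH2siRNA array 1 (adjusted p = 0.0616) and the ABCB9 call without CTLsiRNA array 4 (adjusted p = 0.0655). LAMTOR4 was lost without EZH2siRNA array 1 or CTLsiRNA array 2 or 3 (adjusted p 0.0593 to 0.0874), and LAMTOR2 without EZH2siRNA array 1, 2 or 4, CTLsiRNA array 2, 3 or 4 or SKOV3ip array 3 (0.052 to 0.163). TSC1 was lost without CTLsiRNA array 2, 3 or 4 or SKOV3ip array 1 or 4 (0.0611 to 0.111), and LAMTOR5 without EZH2siRNA array 3 or 4 (0.0541 to 0.0626).

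Of 16 autophagy genes 0 were called in EZH2siRNA against CTLsiRNA, where limma gave 1 higher at an unadjusted p under 0.05. SQSTM1, the cargo receptor p62, read 11.57, 11.45, 11.67 and 11.77 in EZH2siRNA, 11.38, 11.10, 11.37 and 10.88 in CTLsiRNA and 10.27, 10.21, 10.43 and 10.49 in SKOV3ip. It rose by 1.26 in EZH2siRNA (adjusted p = 1.36e-06) and by 0.83 in CTLsiRNA (adjusted p = 0.000318) against SKOV3ip, with no overlap. GABARAPL1 and ULK1 rose as well, by 0.66 and 0.73 in EZH2siRNA and by 0.55 and 0.52 in CTLsiRNA. Against SKOV3ip, 3 of the 16 genes were called higher in CTLsiRNA and 4 in EZH2siRNA, and 0 were called lower in either. In CTLsiRNA the GABARAPL1 call was lost without CTLsiRNA array 2 or SKOV3ip array 2 (adjusted p = 0.056 and 0.0568), and the ULK1 call without CTLsiRNA array 1 or 3 or SKOV3ip array 1 (adjusted p 0.0507 to 0.0621). CD68, listed as a macrophage marker and itself a lysosomal membrane glycoprotein, rose by 1.05 in EZH2siRNA (adjusted p = 3.04e-05) and by 0.78 in CTLsiRNA (adjusted p = 0.00127) against SKOV3ip.

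The 5 genes most like NEU1 by Pearson's r over the 12 arrays, out of 11273 genes, were AMER1 (r = 0.966), ZFYVE26 (0.949), FAM234B (0.931), PTPN14 (0.929) and SCML2 (0.921). AMER1, a regulator of Wnt signalling, read 7.24, 7.03, 7.21 and 7.30 in EZH2siRNA, 8.20, 8.31, 8.41 and 8.16 in CTLsiRNA and 7.90, 7.42, 7.59 and 7.51 in SKOV3ip. The groups stood in the order of those of NEU1, and the 12 arrays share their groups and scaling, so r describes these arrays only. AMER1 fell by 1.07 and ZFYVE26 by 1.03 in EZH2siRNA against CTLsiRNA (adjusted p = 3.63e-05 and 4.2e-05). Among the lysosomal genes r with NEU1 was highest for NPC1 (0.79) and SMPD1 (0.72) and lowest for ASAH1 (-0.52).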

How the data were processed

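The 12 arrays are 4 per group, grouped by their titles. The authors deposited raw intensities for each probe and sample, exported from BeadStudio 3.2 per the submitters' processing notes, with background settings not given in the sources. The authors' deposited log2 table equalled the quantile-normalised log2 of the raw table to within 5e-05 and served as an alternative. The raw values went through normexp correction with an offset of 50 and then quantile normalisation, both from limma 3.58.1 (R 4.3.3). Probes were tested when above the background of their array (p under 0.01, from the most frequent signal and the mirrored spread below it) on at least 4 of 12 arrays. All arrays were fitted in 1 model of 3 groups (lmFit, eBayes) with Benjamini-Hochberg adjustment over 18127 probes, and the pipeline was tested on simulated data. Genes were named through the platform's probe table: 28098 probes had 1 symbol, 13 several and 20692 none. Arrays of a group correlated at 0.976 to 0.993. The members and lists were chosen with earlier results of these data known. Values on every array are given for called genes whose groups do not overlap and for NEU1, CTSA, GLB1, GNPTAB and TFEB, and up to 3 called genes of each other list are named by size of change; the array values of LAMP2, SMPD1, ASAH1, SQSTM1 and AMER1, and CD68, were added after their values were seen. Bead numbers per probe are not used here, so the number of arrays limits the precision. Figures were drawn with matplotlib 3.10.9.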

Additional observations from a re-analysis of the deposited data

Results flagged for a closer look

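In groups of 4 arrays the highest or lowest array was compared with the other 3 for each tested lysosomal gene, and 5 of 105 groups held an array whose gap to the others exceeded the Dixon critical value of 0.829 times the group's range. Chance gives such an array in about 5% of groups. NEU1 on CTLsiRNA array 2 read 8.02, with the other 3 arrays between 8.18 and 8.20, which is still above every EZH2siRNA and SKOV3ip array. IDUA on CTLsiRNA array 3 read 6.34, with the others between 6.52 and 6.55. ASAH1 on CTLsiRNA array 4 read 6.77, with the others between 6.88 and 6.89. CTSL on SKOV3ip array 4, the dimmest array, read 10.77, with the others between 10.89 and 10.90. MCOLN1 on SKOV3ip array 1, the brightest array, read 7.53, with the others between 8.03 and 8.11.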

How the results depend on the processing

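Under 26 alternatives 0 lysosomal results reversed, and 2 of the 18 calls, NEU1 in EZH2siRNA against CTLsiRNA and CTSB in CTLsiRNA against SKOV3ip, were kept in every one. The counts of lysosomal genes called, 3, 7 and 8 in EZH2siRNA against CTLsiRNA, CTLsiRNA against SKOV3ip and EZH2siRNA against SKOV3ip, became 1, 2 and 1 with a 75th percentile shift, and 1, 3 and 4 with the percentile taken over probes present on all arrays, which put the median of all probes at 0.25, -0.14 and 0.15. There the median of the lysosomal genes in EZH2siRNA against CTLsiRNA was 0.03, in place of -0.06. With normexp on a background set per array (offset 16) the first count was 1. Without the 3 dim arrays the first count was 1 and the last 5. Leaving out each array gave 1 to 5, 5 to 8 and 7 to 10: the first count was 1 without EZH2siRNA array 1, 2 or 4 or any 1 CTLsiRNA array, and 5 without EZH2siRNA array 3. With array brightness as a covariate the counts were 2, 7 and 11. Every EZH2siRNA array was dimmer than every CTLsiRNA array, so brightness and group cannot be told apart in that comparison. The cause of these changes in the counts was not tested, except that leaving out arrays leaves fewer of them. Of all probes called, 43.2%, 59.3% and 52.1% were higher, against 6.25%, 81.3% and 36.6% with the 75th percentile shift. With the replicate number as a replicate block the counts were 3, 7 and 9, and all 18 calls were kept. The labels do not state that the numbers pair arrays, so the numbers were not taken as pairs. The deviations from their group means of arrays that share a number correlated at between -0.37 and 0.46. That range pools the 3 comparisons and cannot decide whether arrays were paired. NEU1 lost its call in CTLsiRNA against SKOV3ip in 1 alternative (adjusted p = 0.0502) and in EZH2siRNA against SKOV3ip in 2. HYAL2, LAMTOR4 and LAMTOR2 lost theirs in 10, 9 and 14. Low signal limits NEU1, SMPD1, HEXA, IDUA, GALNS, TFEB and the second GNPTAB probe, among others.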
